A study of Mus musculus with 16 samples.

Results

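Knockdown of *Wdr5* was compared with the nt control after 3 days of reprogramming. The genes compared are those with a mean log2 CPM (log2 of CPM, the reads of a gene scaled by the size of its library) of at least 0 over the 16 libraries of the series, which is 14028 of the 18990 genes in the deposited table. The cells were primary mouse embryonic fibroblasts (MEFs) of wild-type BL6 mice, and every group carried lentiviruses for rtTA and for the doxycycline-inducible tet-STEMCCA cassette, which encodes the OSKM factors Oct4, Sox2, Klf4 and c-Myc. The cells were reverse transfected with 40 nM of pooled siRNAs, either non-targeting (nt control) or against *Wdr5* (siWdr5), re-plated a day later, and switched to doxycycline in a medium with LIF, ascorbic acid, the GSK3 inhibitor CHIR and an Alk5 inhibitor, which blocks the TGF-β type I receptors. Each group has 2 libraries from independent experiments. The siBrca1 and siBard1 libraries of the same day, made in the same way, and the day 6 libraries of siWdr5 and nt control serve as references. The siRNAs were transfected once, before reprogramming, the cultures mix cells that do and do not go on to reprogram, and reads of the cassette cannot be told apart from those of the cells' own *Pou5f1*, *Sox2*, *Klf4* and *Myc*. The libraries are depleted of ribosomal RNA and hold 15393826 and 17393793 reads (nt control) and 16965653 and 16289861 reads (siWdr5). At this depth 3 reads correspond to 0.171 to 0.199 CPM.

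WDR5 is a WD40-repeat protein with a central cavity that holds short arginine motifs of its partners. Together with RBBP5, ASH2L and DPY30 it forms the WRAD core, without which the SET1 and MLL (KMT2) methyltransferases place little methylation on lysine 4 of histone H3, a mark of active promoters. The protein also sits in the NSL and ATAC acetyltransferase complexes and meets MYC through a second surface, and it is known for its part in embryonic stem cell self-renewal and for binding the promoters of ribosomal protein genes.

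The study's siRNA library lists 2 sequences against *Wdr5*. The pool held more siRNAs than these, and the others are not analysed here. The listed ones are printed because they show where in *Wdr5* the knockdown was aimed. The antisense strand is given in RNA letters with a DNA overhang, with its seed (bases 2 to 8) in capitals, and the matched site is given as DNA of the *Wdr5* transcript with the match to the seed in capitals.
Wdr5 siRNA 1, antisense: cAUAGUUUggcuuaacuggtg
Wdr5 siRNA 1, site: ccagttaagccAAACTATg
Wdr5 siRNA 2, antisense: cACGGUUGaaaugaacggctg
Wdr5 siRNA 2, site: gccgttcatttCAACCGTg
On mm10 both sites lie on the plus strand in the coding region of *Wdr5*, whose longest annotated transcript has 14 exons and 2890 bases. The site of siRNA 1 lies in exon 3, at chr2:27519355-27519373. The site of siRNA 2 spans the junction of exons 7 and 8, with 3 bases at chr2:27520909-27520911 and 16 bases at chr2:27525106-27525121. Because a seed can also pair with other transcripts, annotated 3′ UTRs were searched for its match. The 1676 genes with a match to the antisense seed of siRNA 1 lay at 0.0087 by the median of their log2-fold changes (siWdr5 relative to the nt control), and 15.8% of them passed the test as lower. In the 10888 genes without a match the median was −0.037 and 18.2% passed as lower. For siRNA 2, the 203 genes with a match had a median of 0.087, and 11.8% passed as lower. For both siRNAs the median of the genes with a match lay above that of the genes without one. The matched groups have longer 3′ UTRs (median 2632 bases against 1079 for siRNA 1, and 2532 against 1213 for siRNA 2). For the same bases of the sense strands, the medians with and without a match were 0.0058 and −0.037 (siRNA 1) and 0.157 and −0.035 (siRNA 2). In its 3′ UTR *Cnpy1*, named below among the largest falls, holds 1 match to the antisense seed of siRNA 1, as does *Bard1*. *Sall4* and *Sowaha*, also among those falls, hold 0. The part of seed matches in the changes was not tested.

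The question of the comparison is which transcripts depend on *Wdr5* early in reprogramming. A gene passed at an adjusted p below 0.05 (limma, Benjamini-Hochberg over all 14028 genes), and was called where its log2-fold change was also beyond 1 in either direction. Of all genes, 18.3% passed as higher in siWdr5 and 16.8% as lower. The shares of called genes were 4.1% higher and 2.95% lower, and the median log2-fold change of all genes was −0.04. Of the called genes 58.1% were higher, and 67.9% when the libraries were centred on their median genes. In a principal component analysis of the day 3 libraries, the second component (21.4% of the variance) placed both siWdr5 libraries at −34.4 and −30.6 and the other 6 libraries between 2.92 and 23.1. The first component (51.1%) placed them at 8.62 and 9.97, between the nt control (−45.7 and −40.0) and siBrca1 (22.8 and 53.3). In such bulk samples fewer cells of a type and less RNA per cell cannot be told apart.

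Within the WRAD core, *Wdr5* itself and *Dpy30* were called lower. *Wdr5* had 132 and 130.5 CPM in the nt control and 50.6 and 55.3 CPM in siWdr5 (log2-fold change −1.31, SE 0.10, adjusted p = 3.02e-06), a 2.48-fold lower level. *Dpy30*, the subunit that binds ASH2L and is needed for full activity of the enzyme, had 99.8 and 93.6 CPM in the nt control and 44.2 and 48.6 CPM in siWdr5 (log2-fold change −1.06, SE 0.19, adjusted p = 8.20e-04). *Rbbp5*, whose protein contacts the catalytic subunit, had a log2-fold change of −0.33 (adjusted p = 0.0448), and *Ash2l*, its partner on the nucleosome, one of −0.076 (adjusted p = 0.613). The annotated 3′ UTR of *Dpy30* holds 0 matches to the seeds of the 2 listed siRNAs. The rest of its transcript and the other siRNAs of the pool were not searched, so an off-target part in its fall was not tested. Of the 6 catalytic subunits, *Setd1b* (0.47, adjusted p = 0.00647, not passing in 2 of 15 alternatives with an adjusted p of up to 0.0855 without siWdr5 replicate 1) and *Kmt2a* (0.30, adjusted p = 0.0348, not passing in 5 of 15 alternatives with an adjusted p of up to 0.265 without siWdr5 replicate 1) were higher. Among the other subunits and partners, *Psip1* (LEDGF), which tethers MLL1 and menin to chromatin, fell from 99.3 and 92.01 CPM to 55.7 and 60.1 CPM (−0.72, adjusted p = 6.55e-04). *Wdr5b*, a close relative of *Wdr5* with 1 coding exon, stood at 3.83 and 3.96 CPM in the nt control and 1.44 and 2.66 CPM in siWdr5 (−0.99, adjusted p = 0.0229, not passing in 5 of 14 alternatives with an adjusted p of up to 0.258 without siWdr5 replicate 1). Over the whole list of 29 tested genes, 2 passed as higher and 7, the siRNA target *Wdr5* included, as lower (median −0.076). The list thus had 24.1% of its genes lower beside 16.8% of all genes. Its 7 lower genes were 3 without nt control replicate 1, 3 without nt control replicate 2, 3 without siWdr5 replicate 1 and 5 without siWdr5 replicate 2.

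The 10 called genes with the largest rises are named in this paragraph. *Selp*, the P-selectin of platelets and endothelium, rose from 0.664 and 0.650 CPM to 9.03 and 7.64 CPM (log2-fold change 3.66, SE 0.28, adjusted p = 2.97e-06). Its exons share 14.1% of their bases with annotation on the opposite strand, and how the counting used strand is not given in the sources used here. Of the genes named further on, *Ccne2*, *Csf1r*, *Ctsb*, *Ctsl*, *Pou5f1*, *Psph*, *Rfc4* and *Timp3* share 10.4% (*Psph*) to 26.8% (*Ctsl*) of their exon bases in this way. *Ccl8*, a monocyte chemokine, rose from 0.598 and 0.593 CPM to 6.23 and 9.03 CPM (log2-fold change 3.66, SE 0.31, adjusted p = 4.10e-06). In both genes each siWdr5 library lay far above each nt control library, which follows in part from their choice by size of rise. *Ppbp*, the precursor of a platelet chemokine, rose from 1.26 and 1.39 CPM to 11.8 and 14.3 CPM (log2-fold change 3.30, SE 0.23, adjusted p = 2.04e-06). *Apob*, the apolipoprotein of low-density lipoprotein, rose from 0.730 and 0.421 CPM to 4.99 and 4.38 CPM (log2-fold change 3.08, SE 0.35, adjusted p = 3.14e-05). *Angpt4*, an angiopoietin, rose from 1.39 and 2.87 CPM to 17.3 and 14.7 CPM (log2-fold change 3.00, SE 0.28, adjusted p = 8.20e-06). The next by size were *Cd53* (2.91), a tetraspanin of blood cells, *F5* (2.87), a coagulation factor, *Gjb2* (2.70), a gap junction connexin, *Frmpd3* (2.67) and *Tns4* (2.61), an adaptor at focal adhesions. Several of these stand on few reads in the control, with 2 and 5 reads of *Gjb2* in the nt control libraries against 32 and 32 in siWdr5, so the sizes of their fold changes depend on the prior count in the deposited values.

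The 10 largest falls among named genes are given in this paragraph. *Sall4*, a zinc finger factor of the pluripotency network, fell from 8.38 and 6.87 CPM to 1.63 and 1.20 CPM (log2-fold change −2.44, SE 0.26, adjusted p = 2.14e-05), which is a 5.43-fold lower level. *Sowaha* fell from 12.3 and 12.6 CPM to 2.13 and 2.53 CPM (log2-fold change −2.43, SE 0.30, adjusted p = 6.91e-05), and *Cnpy1*, a regulator of FGF signalling, from 8.65 and 9.49 CPM to 1.82 and 1.66 CPM (log2-fold change −2.38, SE 0.23, adjusted p = 1.01e-05). *Hap1*, the huntingtin-associated protein, fell from 2.44 and 2.47 CPM to 0.447 and 0.667 CPM (log2-fold change −2.17, SE 0.33, adjusted p = 2.86e-04). In each of these 4 genes the groups did not overlap, which follows in part from their choice by size of fall. Among the other leading falls were *Cass4* (−2.25), an adhesion scaffold with 21.2% of its exon bases shared with the opposite strand, *Sall3* (−2.12), a relative of *Sall4*, *Myb* (−2.09), a progenitor transcription factor, and *Trh* (−2.25, adjusted p = 0.0163, not passing in 5 of 15 alternatives with an adjusted p of up to 0.108 without siWdr5 replicate 1), the precursor of thyrotropin-releasing hormone. *Mir6236* (−4.82, adjusted p = 0.0178, not passing in 5 of 14 alternatives with an adjusted p of up to 0.303 without siWdr5 replicate 1) and *Lars2* (−2.40, adjusted p = 0.00390, not passing in 2 of 15 alternatives with an adjusted p of up to 0.0605 without siWdr5 replicate 1) were also among the 10, and are known to collect ribosomal RNA reads. *Lars2* had 237 and 271 CPM in the nt control and 20.97 and 109.5 CPM in siWdr5. Models that hold ribosomal RNA reads, with *Mir6236* itself among them but not *Lars2*, took 0.327% and 0.147% of the nt control reads and 0.000631% and 0.0573% of the siWdr5 reads. The part of that carry-over in both falls was not tested.

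**Figure D1:**
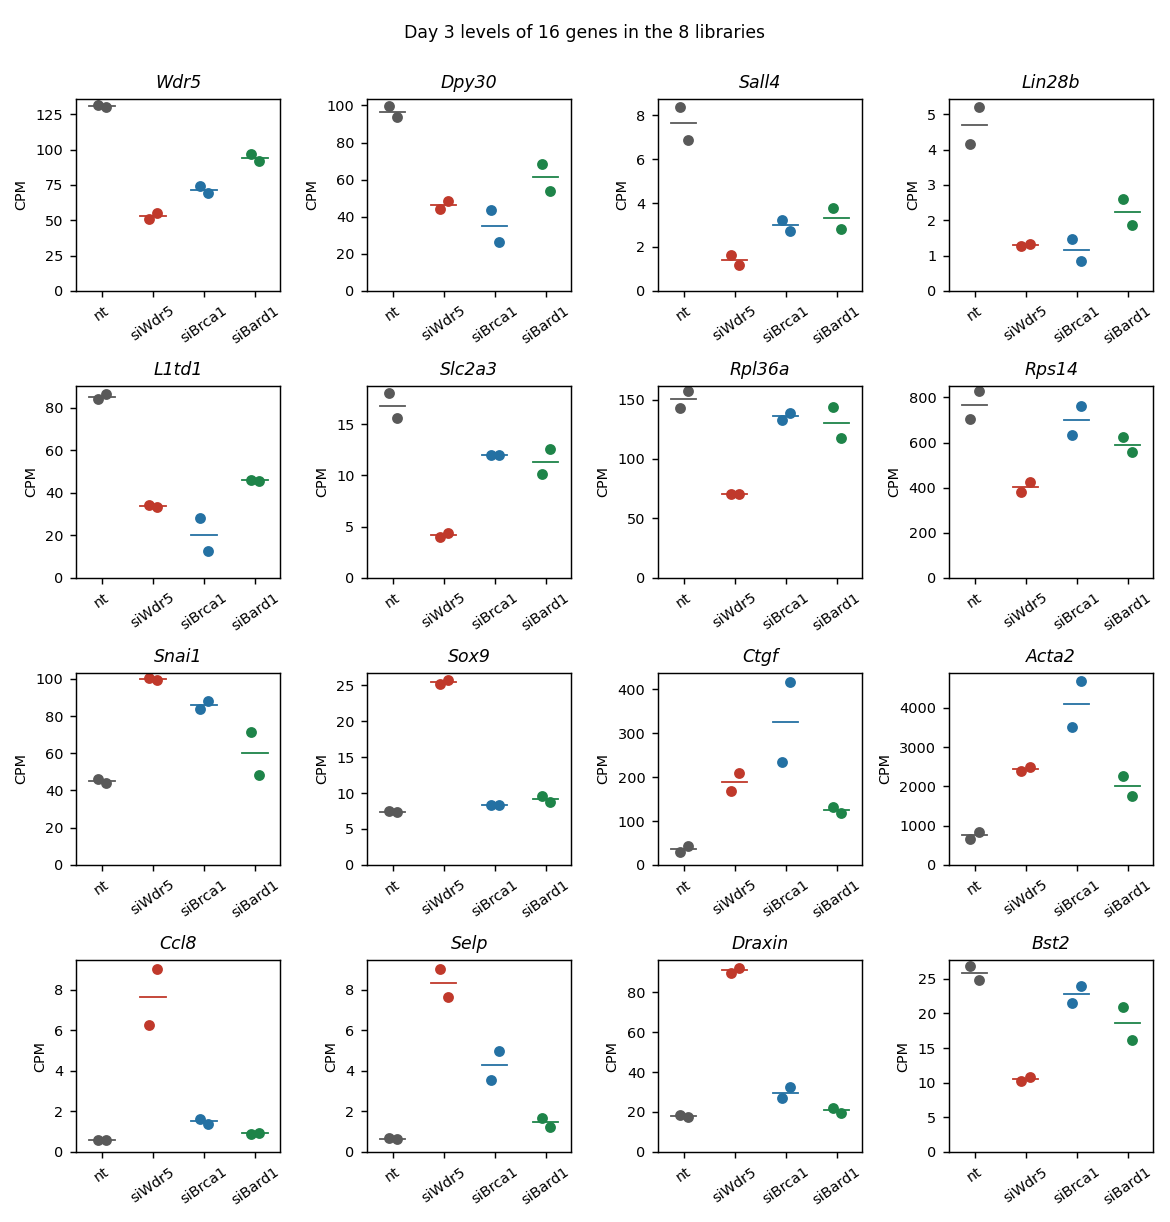
Level of 16 genes in the 8 day 3 libraries, in CPM on an axis from 0 in each panel, with 1 point per library and a line at the mean of the 2 libraries of nt control, siWdr5, siBrca1 or siBard1. *Sall4* and *Dpy30* lie lower in siWdr5 than in the nt control, and *Ccl8* and *Selp* lie higher in siWdr5 than in the other 3 groups.

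The remaining genes were read as lists of known function. For each list the number of tested members that passed in each direction and the median log2-fold change are given, to be read against 18.3% higher, 16.8% lower and a median of −0.04 over all genes. Where leaving out 1 library moved a count by more than 1.5 times, the counts of the larger direction follow in square brackets, in the order without nt control replicate 1, without nt control replicate 2, without siWdr5 replicate 1 and without siWdr5 replicate 2. The shares of all genes hold for the fit with all libraries and have no counterpart here for fits without 1 library. Counts without 1 library, in brackets or in the text, therefore show only how far a count depends on single libraries. Where a list has 0 genes in a direction relative to the nt control, at most 1 member had an unadjusted p below 0.05 that way (limma), and at most 1 passed with limma-voom. Named members were mostly chosen for a large change that passed, so a lack of overlap between their libraries follows in part from the choice. The plot of list members shows the spread behind these numbers.

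**Figure D2:**
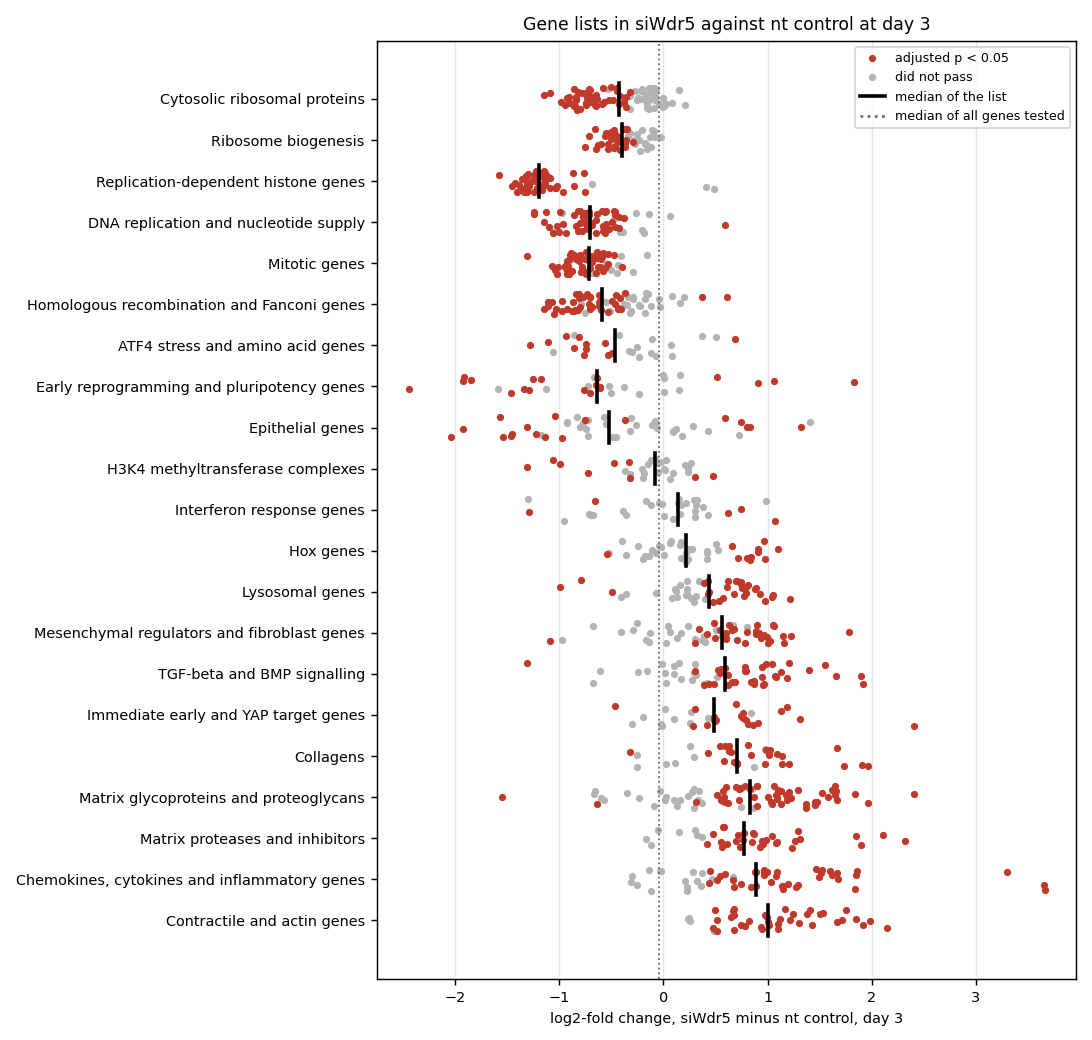
Log2-fold change of siWdr5 relative to the nt control at day 3 for the members of 21 gene lists, 1 point per gene, red where the adjusted p was below 0.05, with a black bar at the list median and a dotted line at the median of all genes tested (−0.04). Contractile, matrix and chemokine genes lie mostly above the line and replication-dependent histone, mitotic and DNA replication genes below it.

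Early reprogramming and pluripotency genes passed more often as lower than as higher in siWdr5. Of 32 tested genes, 15 passed as lower [11, 9, 8 and 8] and 4 as higher, with a median of −0.64, and 9 were called lower. The factors of the cassette were among them, at log2-fold changes of −0.61 for *Pou5f1*, −0.71 for *Sox2*, −0.61 for *Klf4* and −0.64 for *Myc*, each with an adjusted p below 0.05. The sum of cassette and endogenous reads was thus lower in siWdr5, with *Pou5f1* at 219 and 246 CPM in the nt control and 162 and 142 CPM in siWdr5. *Nr5a2*, a nuclear receptor that binds the *Pou5f1* promoter, fell from 5.08 and 5.44 CPM to 1.63 and 1.20 CPM (log2-fold change −1.91, SE 0.33, adjusted p = 7.11e-04). *Lin28b*, which blocks maturation of let-7 microRNAs, fell from 4.16 and 5.21 CPM to 1.26 and 1.33 CPM (log2-fold change −1.85, SE 0.33, adjusted p = 8.55e-04). *L1td1*, an RNA-binding protein of pluripotent cells, had 84.04 and 86.5 CPM in the nt control and 34.3 and 33.2 CPM in siWdr5 (log2-fold change −1.34, adjusted p = 0.00120). In all 3 genes both siWdr5 libraries were below both nt control libraries. The largest higher values went to *Dnmt3l* (1.83, adjusted p = 0.00702, not passing in 2 of 14 alternatives with an adjusted p of up to 0.103 without nt control replicate 1), a cofactor of DNA methylation, *Tbx3* (1.06, adjusted p = 4.81e-05), *Klf2* (0.91, adjusted p = 0.00554, not passing in 1 of 15 alternatives with an adjusted p of up to 0.0627 without siWdr5 replicate 1) and *Alpl* (0.51, adjusted p = 0.0168, not passing in 4 of 15 alternatives with an adjusted p of up to 0.143 without siWdr5 replicate 1), the alkaline phosphatase used as an early marker. The list therefore did not move as one block.

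The epithelial genes, which rise as fibroblasts pass through a mesenchymal-to-epithelial transition, had a median of −0.53. Of 46 tested, 13 passed as lower [7, 11, 7 and 10] and 5 as higher, and 10 were called lower. The 5 keratins among them had a median of 0.59, with 2 passing as higher and 1 as lower. *Spint1*, an inhibitor of membrane serine proteases, fell from 5.08 and 4.24 CPM to 1.07 and 1.20 CPM (log2-fold change −2.04, SE 0.27, adjusted p = 1.18e-04). Its relative *Spint2* fell from 9.63 and 9.09 CPM to 3.56 and 2.92 CPM (log2-fold change −1.54, SE 0.22, adjusted p = 2.20e-04), and *Marveld3*, a tight junction protein, had 1.79 and 1.33 CPM in the nt control and 0.447 and 0.601 CPM in siWdr5 (−1.57, adjusted p = 0.0274, not passing in 5 of 14 alternatives with an adjusted p of up to 0.170 without nt control replicate 1). Going the other way, *Gata3* rose from 2.64 and 2.08 CPM to 6.11 and 5.58 CPM (1.32, adjusted p = 0.00185), and *Gata6* (0.80, adjusted p = 0.00328) and *Jup*, plakoglobin (0.75, adjusted p = 3.20e-04), were also higher. *Spint1*, *Spint2* and *Marveld3* thus differed in direction from both GATA factors and from *Jup*, itself a junction protein. Promoters were read for the E-box that Snail and ZEB repressors bind, CACCTG on either strand, in the 250 bases before and 50 after each RefSeq start. It was found in 70.4% of the 27 epithelial promoters in the table, against 20.7% of all 10195 tested genes with a promoter. Among called genes the share was 32.5% of those lower and 20.6% of those higher. The window of *Spint1* holds none. The promoter of *Epcam*, the epithelial surface marker (log2-fold change −1.93), was chosen because it holds the word and is printed with its 2 matches in capitals (chr17:87635729-87636028, GRCm38.p6, plus strand, RefSeq).
Epcam promoter: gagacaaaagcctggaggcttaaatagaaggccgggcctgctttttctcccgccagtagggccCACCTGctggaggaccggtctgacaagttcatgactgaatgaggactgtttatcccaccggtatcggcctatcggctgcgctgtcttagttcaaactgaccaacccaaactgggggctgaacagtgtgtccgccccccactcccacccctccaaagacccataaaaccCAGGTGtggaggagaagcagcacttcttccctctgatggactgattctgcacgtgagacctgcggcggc

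Mesenchymal regulators and fibroblast genes passed more often as higher than as lower. Of 53 tested, 30 passed as higher and 1 as lower, with a median of 0.56. *Sox9*, a regulator of cartilage and progenitor cells, rose from 7.46 and 7.32 CPM to 25.1 and 25.8 CPM (log2-fold change 1.78, SE 0.15, adjusted p = 4.10e-06). The Snail factors *Snai1*, from 46.2 and 43.8 CPM to 100.3 and 99.3 CPM (log2-fold change 1.15, SE 0.15, adjusted p = 8.19e-05), and *Snai2*, from 15.7 and 12.97 CPM to 30.1 and 33.6 CPM (log2-fold change 1.16, SE 0.18, adjusted p = 3.02e-04), rose to a like extent. *Ly6a* (Sca-1), a surface protein of MEFs that is lost in reprogramming, rose from 132 and 151 CPM to 296 and 364 CPM (log2-fold change 1.22, SE 0.13, adjusted p = 2.07e-05). Both libraries of siWdr5 exceeded both of the nt control in each of these genes. The one member that passed as lower was *Foxd1*, a forkhead factor of the stroma (−1.09, adjusted p = 5.38e-04).

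Most genes of the extracellular matrix lists passed as higher, from structural proteins to the enzymes that process and cut them. Of the 33 collagens tested, 24 passed as higher and 1 as lower (median 0.71). Of the 11 fibrillar collagens, 9 passed as higher and 0 as lower. *Col2a1*, the cartilage collagen, rose from 11.2 and 13.8 CPM to 46.97 and 49.8 CPM (1.96, adjusted p = 2.97e-06), and *Col1a1*, of bone and skin, from 3312 and 4043 CPM to 7242 and 7228 CPM (0.98, adjusted p = 0.00109). Collagen hydroxylases, chaperones and cross-linking enzymes had 20 of 26 higher and 1 lower (median 0.64). Among them, *Lox*, which cross-links collagen and elastin, rose from 104 and 120.3 CPM to 293 and 315 CPM (1.44, adjusted p = 3.78e-06). Matrix glycoproteins and proteoglycans had 50 of 75 higher and 2 lower (median 0.83), led by *Ctgf* (Ccn2), a matricellular protein, from 29.8 and 42.2 CPM to 169 and 209 CPM (2.41, adjusted p = 6.10e-06). *Ctgf* shares 23.2% of its exon bases with the opposite strand. The exception of size was *Spock2*, a proteoglycan, which fell from 4.69 and 6.52 CPM to 2.44 and 1.46 CPM (−1.55, adjusted p = 0.00216).

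Proteases of the matrix and their inhibitors passed as higher in 30 of 37 genes and as lower in 0 (median 0.77). The stromelysin *Mmp10* rose from 0.466 and 0.479 CPM to 1.82 and 3.06 CPM (2.32, adjusted p = 0.00125) and the collagenase *Mmp13* from 5.22 and 3.96 CPM to 16.6 and 23.1 CPM (2.11, adjusted p = 2.04e-04). The metalloproteinase inhibitor *Timp3* rose with them, from 96.3 and 106 CPM to 349 and 381 CPM (1.85, adjusted p = 4.47e-07). Laminins and integrins were divided, with 13 of 26 higher and 2 lower (median 0.45). The collagen receptor *Itga1* (1.64) and the laminin receptor *Itga7* (1.31) rose, and the β-subunits *Itgb4* (−0.83) and *Itgb3* (−0.77) fell.

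The contractile and actin genes had the highest median of the lists with more than 30 tested genes, at 1.00. Of 41 tested, 37 passed as higher, 0 as lower and 20 were called higher. *Acta1*, skeletal α-actin, rose from 9.83 and 12.2 CPM to 47.1 and 49.5 CPM (2.14, adjusted p = 2.97e-06). Calponin (*Cnn1*) rose from 80.1 and 101.4 CPM to 329.7 and 349 CPM (1.91, adjusted p = 2.73e-06) and *Mylk*, the myosin light chain kinase, from 25.4 and 28.7 CPM to 91.4 and 104 CPM (1.85, adjusted p = 1.57e-06). *Acta2*, the smooth muscle actin of myofibroblasts, had 671 and 832 CPM in the nt control and 2397 and 2505 CPM in siWdr5 (log2-fold change 1.71, adjusted p = 1.40e-05). Of the Myod family, *Myod1*, *Myf5* and *Myog* are not in the table. The strict CArG word CCWWWWWWGG (W is A or T), a form of the site that serum response factor binds, was found in 21.2% of 33 contractile promoters and in 1.60% of all. The windows of *Acta2* and *Cnn1* hold no exact match. CArG boxes with a G or C between CC and GG were not searched, so these windows may still hold such boxes. Among called genes the strict word was in 4.07% of those higher and 3.61% of those lower. The immediate early and YAP target genes had 19 of 30 higher and 1 lower (median 0.49). *Ankrd1*, a target of YAP, rose from 15.9 and 24.1 CPM to 46.9 and 50.6 CPM (1.32, adjusted p = 1.02e-04) and *Cyr61* (Ccn1) from 169 and 201 CPM to 409 and 431 CPM (1.19, adjusted p = 1.14e-05). The TEAD word CATTCC, on either strand, was in 52.4% of the 21 promoters of that list, in 36.4% of the contractile ones and in 14.5% of all, and in 19.1% of called higher and 15.7% of called lower genes. The *Ankrd1* promoter is printed with its 2 matches in capitals (chr19:36119795-36120094, GRCm38.p6, minus strand, RefSeq).
Ankrd1 promoter: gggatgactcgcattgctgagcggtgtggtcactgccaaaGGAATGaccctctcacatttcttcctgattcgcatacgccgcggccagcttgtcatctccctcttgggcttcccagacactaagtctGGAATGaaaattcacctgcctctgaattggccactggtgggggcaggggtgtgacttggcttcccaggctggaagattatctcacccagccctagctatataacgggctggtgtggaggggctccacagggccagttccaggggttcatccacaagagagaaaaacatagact

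Genes of TGF-β and BMP signalling mostly passed as higher. The medium of all groups held an Alk5 inhibitor. Of 53 tested, 34 passed as higher and 1 as lower (median 0.59). Among the ligands *Inhba*, the activin A subunit, rose from 66.2 and 69.5 CPM to 212 and 216 CPM (1.66, adjusted p = 2.73e-06). The receptor *Acvr2b* was the exception and fell from 16.2 and 14.7 CPM to 6.85 and 5.64 CPM (−1.31, adjusted p = 4.66e-04). This ligand subunit and this receptor thus did not share 1 direction.

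Growth factor genes (FGF, PDGF, IGF and related) had 34 of 67 higher [22, 26, 23 and 22] and 4 lower (median 0.41). The IGF binding proteins *Igfbp5*, from 28.3 and 28.02 CPM to 119 and 124 CPM (2.11, adjusted p = 4.70e-06), and *Igfbp7*, from 58.2 and 57.2 CPM to 164 and 156 CPM (1.47, adjusted p = 1.83e-05), rose, while *Pdgfb* had 2.58 and 1.62 CPM in the nt control and 0.634 and 0.535 CPM in siWdr5 (−1.81, adjusted p = 0.00750, not passing in 2 of 14 alternatives with an adjusted p of up to 0.0868 without nt control replicate 1). Wnt genes had 15 of 42 higher [9, 11, 10 and 8] and 5 lower (median 0.29). The ligand *Wnt4* rose (1.82), as did the feedback inhibitor *Nkd1* (1.25), and the receptors *Fzd9* (−1.72) and *Fzd6* (−1.08) fell.

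Most chemokine, cytokine and inflammatory genes passed as higher. Of 55 tested, 39 passed as higher [30, 32, 32 and 25], 0 as lower and 23 were called higher (median 0.89). Besides *Ccl8*, *Ppbp* and *Selp*, the cytokine *Il6* rose from 1.26 and 1.16 CPM to 4.30 and 4.45 CPM (1.86, adjusted p = 7.22e-05) and the macrophage growth factor *Csf1* from 214 and 261 CPM to 643 and 663 CPM (1.47, adjusted p = 1.42e-05). Of the interferon response genes, 3 of 31 passed as higher (9.68%) and 2 as lower (6.45%, median 0.14). *Bst2* (tetherin) fell from 26.8 and 24.8 CPM to 10.2 and 10.9 CPM (−1.29, adjusted p = 4.41e-05) and *Gbp2*, a GTPase, rose from 6.80 and 5.73 CPM to 11.5 and 15.1 CPM (1.07, adjusted p = 5.03e-04).

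Since several of these genes are also made by other cells, the markers of such cells were summed in each library. The 11 fibroblast markers summed to 7994 and 8991 CPM without the prior in the nt control and to 14072 and 14644 in siWdr5, and 10 of them passed as higher. The macrophage and other blood markers, 7 of 11 in the table, summed to 8.77 and 7.64 CPM without the prior in the nt control and 12.3 and 14.3 in siWdr5. Of the 4 tested, 3 were higher and 1 lower, and *Csf1r*, the receptor of *Csf1*, was the only 1 that passed (1.81, adjusted p = 1.61e-04). *Ptprc*, *Itgam*, *C1qa* and *C1qc* are not in the table, and *Cd68*, *Adgre1*, *Lyz2*, *Cd14*, *C1qb* and *Tyrobp* are. The endothelial markers, 8 of 10 in the table, summed to 45.8 and 43.5 CPM without the prior in the nt control and 56.6 and 63.2 in siWdr5. Of the 5 erythroid markers none is in the table. The skeletal muscle sum was 33.6 and 42.3 in the nt control and 141 and 141 in siWdr5 with 3 of 6 in the table, and *Des*, desmin, rose (1.98). The neural sum was 195 and 182 in the nt control and 196 and 201 in siWdr5 with 5 of 8 in the table. The 4 keratinocyte markers summed to 2.90 and 3.65 in the nt control and 7.15 and 7.03 in siWdr5, and *Trp63*, the p63 factor of basal epithelia, rose (1.76, adjusted p = 0.00152). The part of these cell types in the changes was not tested.

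Many cytosolic ribosomal protein genes passed as lower, by small amounts and unevenly. Of 81 tested genes, 45 passed as lower and 0 as higher, 2 were called, and the median was −0.43. The large subunit had 32 of 48 lower (median −0.55) and the small subunit 13 of 33 (median −0.25). *Rpl36a* fell from 143 and 157 CPM to 70.6 and 70.4 CPM (log2-fold change −1.09, SE 0.11, adjusted p = 1.70e-05), and *Rpl22l1*, the alternate form of RPL22, from 42.4 and 44.7 CPM to 18.9 and 20.4 CPM (log2-fold change −1.15, SE 0.13, adjusted p = 3.13e-05). *Rpl36* fell from 316 and 346 CPM to 165 and 169 CPM (log2-fold change −0.99, SE 0.12, adjusted p = 4.45e-05). On the small subunit *Rps14* had 705 and 828 CPM in the nt control and 381 and 424 CPM in siWdr5 (log2-fold change −0.93, adjusted p = 1.44e-04). In these genes the siWdr5 libraries were below both nt control libraries. Others stayed near 0, such as *Rplp0* (0.21, adjusted p = 0.235), the stalk protein, and *Rps13* (0.014, adjusted p = 0.933). Ribosomal protein genes share reads with many processed pseudogenes, and how the authors' counting divided them is not given in the sources used here. Many of the genes were also lower in siWdr5 than in the other knockdowns. Relative to siBrca1, 40 of the genes passed as lower in siWdr5 (17 without siWdr5 replicate 1, 27 without siWdr5 replicate 2, 42 without siBrca1 replicate 1 and 38 without siBrca1 replicate 2) and 0 as higher, beside 10.2% and 5.47% of all genes. Relative to siBard1, 28 passed as lower (3 without siWdr5 replicate 1, 11 without siWdr5 replicate 2, 14 without siBard1 replicate 1 and 24 without siBard1 replicate 2) and 1 as higher, beside 3.78% and 4.85%. These 3 comparisons share the siWdr5 libraries.

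**Figure D3:**
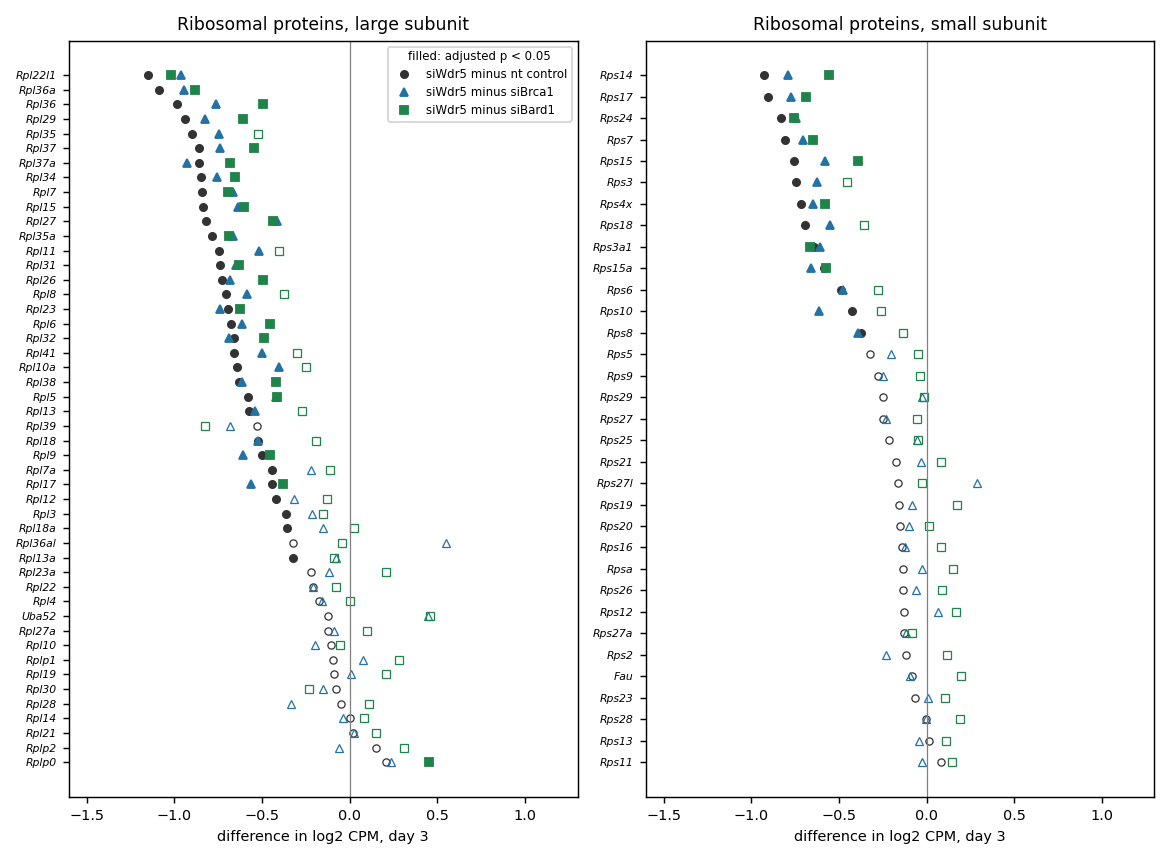
Log2-fold change of each cytosolic ribosomal protein gene in siWdr5 relative to the nt control, siBrca1 and siBard1 at day 3, by subunit, filled where the adjusted p was below 0.05. Most large subunit genes lie below 0 in the 3 comparisons, while a part of each subunit lies near 0.

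Ribosome biogenesis factors had 32 of 50 lower [11, 15, 9 and 22] and 0 higher (median −0.40). *Dkc1*, the pseudouridine synthase dyskerin, fell from 163 and 150.1 CPM to 86.2 and 100.7 CPM (−0.75, adjusted p = 0.00148), and *Ebna1bp2*, a nucleolar processing factor, from 143 and 159 CPM to 92.5 and 98.6 CPM (−0.66, adjusted p = 0.00157). Against siBrca1 this list went the other way, with 17 genes higher in siWdr5 and 0 lower, and 1 without siWdr5 replicate 1, 0 without siWdr5 replicate 2, 35 without siBrca1 replicate 1 and 2 without siBrca1 replicate 2. The mitochondrial ribosomal proteins had 41 of 75 lower [15, 18, 13 and 26] and 0 higher (median −0.43), with *Mrpl11* falling from 35.4 and 39.4 CPM to 18.98 and 19.2 CPM (−0.97, adjusted p = 1.13e-04). Splicing factors had 23 of 40 lower [9, 10, 4 and 14] and 0 higher (median −0.36), among them the Sm protein *Snrpb* (−0.70) and the SR protein *Srsf3* (−0.67).

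Genes of proliferating cells were lower. Of 64 DNA replication and nucleotide supply genes, 53 passed as lower [24, 28, 11 and 31] and 1 as higher (median −0.71). *Prim1*, the primase catalytic subunit, fell from 35.5 and 32.1 CPM to 13.1 and 15.4 CPM (log2-fold change −1.25, SE 0.17, adjusted p = 1.28e-04), and *Rfc4*, a subunit of the clamp loader, from 22.4 and 22.5 CPM to 8.84 and 10.2 CPM (log2-fold change −1.24, SE 0.16, adjusted p = 8.27e-05). Of 66 mitotic genes, 56 passed as lower [25, 29, 10 and 24] and 0 as higher (median −0.72), as in the kinetochore subunit *Spc24*, from 32.98 and 32.5 CPM to 13.3 and 13.1 CPM (log2-fold change −1.31, SE 0.24, adjusted p = 0.00100), and the checkpoint kinase *Bub1*, from 45.1 and 42.5 CPM to 19.5 and 23.7 CPM (log2-fold change −1.02, SE 0.21, adjusted p = 0.00209). The replication-dependent histones had 49 of 54 lower [27, 45, 28 and 15] and 44 called lower, with the lowest median of the lists (−1.19). *Hist1h2bb* fell from 240.1 and 199 CPM to 82.1 and 81.2 CPM (−1.42, adjusted p = 0.00318). Histone genes are near-identical in sequence, so the values of single copies are uncertain. Relative to siBrca1 and to siBard1, 0 of the histone genes passed in either direction (limma), with 0 and 8 at an unadjusted p below 0.05 as lower, 1 and 0 as higher, and 0 and 1 passing as lower with limma-voom. Without siBrca1 replicate 1, 47 passed as higher than in siBrca1. Cyclins, CDK inhibitors and E2F factors had 9 of 28 lower [3, 3, 1 and 4] and 4 higher (median −0.25), with *Ccne2*, cyclin E2, lower (−1.12) and *Cdkn2b*, the CDK4 inhibitor p15, higher (0.98).

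Promoters of these lists were read for the words of 2 cell cycle elements on either strand. The E2F words TTCCCGC or TTGGCGC were in 56.6% of 53 DNA replication promoters and 14.3% of all, and the CHR word TTTGAA, which the DREAM complex binds, was in 66.1% of 56 mitotic promoters and 14.1% of all. Among called lower genes the E2F words were in 16.5% and the CHR word in 18.5%, and among called higher genes in 7.89% and 15.1%. The windows of *Ccnb1* and *Bub1* hold no CHR word, and that of *Mcm2* holds no E2F word. No searched word contains another, and a match describes the letters and not a bound site. *Mcm6*, a subunit of the replicative helicase, had 175 and 172 CPM in the nt control and 111 and 126 CPM in siWdr5, and *Cdk1*, the mitotic kinase, had 130.5 and 143 CPM in the nt control and 68.9 and 84.7 CPM in siWdr5. Their promoters, taken from those that hold the words, are printed with the E2F words (*Mcm6*, chr1:128359656-128359955) or the CHR words (*Cdk1*, chr10:69352863-69353162) in capitals. Both are from the minus strand of GRCm38.p6 (RefSeq).
Mcm6 promoter: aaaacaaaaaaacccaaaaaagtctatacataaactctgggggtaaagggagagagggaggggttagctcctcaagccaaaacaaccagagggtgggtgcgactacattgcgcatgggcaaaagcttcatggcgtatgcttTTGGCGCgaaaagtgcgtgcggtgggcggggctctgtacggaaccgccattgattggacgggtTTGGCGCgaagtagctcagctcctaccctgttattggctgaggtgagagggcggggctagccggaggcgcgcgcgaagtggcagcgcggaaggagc
Cdk1 promoter: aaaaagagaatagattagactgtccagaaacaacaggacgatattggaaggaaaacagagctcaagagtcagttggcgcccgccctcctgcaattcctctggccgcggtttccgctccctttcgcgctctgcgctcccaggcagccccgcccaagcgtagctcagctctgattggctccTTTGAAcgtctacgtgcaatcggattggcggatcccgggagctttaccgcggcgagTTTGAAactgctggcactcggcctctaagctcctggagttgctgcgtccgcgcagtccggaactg

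Repair genes also passed more often as lower than as higher. Homologous recombination and Fanconi genes had 39 of 65 lower [21, 21, 14 and 25] and 2 higher (median −0.59). The checkpoint kinase *Chek1* fell from 32.9 and 31.2 CPM to 13.4 and 16.6 CPM (log2-fold change −1.10, SE 0.19, adjusted p = 6.52e-04) and the nuclease *Dna2* from 22.6 and 22.9 CPM to 10.9 and 10.8 CPM (log2-fold change −1.07, SE 0.24, adjusted p = 0.00356). Other repair genes had 20 of 49 lower [12, 12, 8 and 14] and 5 higher (median −0.43), with the uracil glycosylase *Ung* falling (−1.16) and *Mad2l2*, a subunit of shieldin and polymerase ζ, rising (0.75). The p53 target and apoptosis genes had 13 of 48 higher [9, 8, 9 and 8] and 3 lower (median 0.14), with the death receptor *Fas* (0.78) and *Gadd45g* (1.00) higher and the p53 inhibitor *Mdm4* (−0.71) lower. Chromatin repression and DNA methylation genes had 10 of 20 lower [5, 4, 2 and 8] and 1 higher (median −0.31). Those that fell included *Phf19*, a partner of PRC2 (−1.06), and *Uhrf1*, which guides maintenance methylation (−0.97).

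Patterning genes changed in part. Hox genes and their cofactors had 10 of 39 higher [8, 7, 8 and 6] and 1 lower (median 0.22). *Hoxc8* rose from 15.8 and 15.4 CPM to 33.2 and 33.9 CPM (1.10, adjusted p = 2.81e-05) and *Hoxc10* from 5.41 and 6.92 CPM to 11.5 and 12.5 CPM (0.97, adjusted p = 0.00232), both of the HoxC cluster. Imprinted growth genes had 11 of 22 higher [7, 10, 7 and 9] and 1 lower (median 0.48). *Peg3* rose from 227 and 242 CPM to 436 and 448 CPM (0.92, adjusted p = 2.91e-05), and *Nnat*, neuronatin, fell from 50.6 and 48.3 CPM to 18.2 and 18.3 CPM (−1.44, adjusted p = 7.53e-06).

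Metabolic lists were less uniform. Glycolysis and hypoxia genes had 9 of 34 higher [5, 6, 7 and 3] and 4 lower (median 0.059). The glucose transporter *Slc2a3* fell from 18.01 and 15.6 CPM to 3.99 and 4.38 CPM (log2-fold change −2.002, SE 0.17, adjusted p = 4.33e-06) and *Pdk1*, which restrains pyruvate dehydrogenase, from 48.9 and 49.6 CPM to 20.04 and 20.3 CPM (log2-fold change −1.29, SE 0.15, adjusted p = 4.70e-05), while hexokinase 1 (*Hk1*) rose (0.68). Oxidative phosphorylation genes had 12 of 57 lower [3, 7, 3 and 10] and 0 higher (median −0.19), led by *Sdhd* (−0.70). Sterol and lipid genes had 7 of 40 higher [5, 2, 3 and 2] and 5 lower (median 0.093), with *Dhcr7* of cholesterol synthesis lower (−0.85). The ATF4 stress and amino acid genes had 11 of 26 lower and 1 higher (median −0.46), with the cationic amino acid transporter *Slc7a3* falling from 100.6 and 89.6 CPM to 37.96 and 40.1 CPM (−1.28, adjusted p = 4.35e-06) and *Psph* of serine synthesis from 25.3 and 29.2 CPM to 11.5 and 13.8 CPM (−1.11, adjusted p = 0.00150).

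Lysosomal and secretory genes passed more often as higher than as lower. Lysosomal genes had 26 of 46 higher and 3 lower (median 0.44), with cathepsin L (*Ctsl*) rising from 137 and 155 CPM to 309 and 369 CPM (1.22, adjusted p = 2.85e-04) and cathepsin B (*Ctsb*) from 475 and 488 CPM to 950.3 and 1053 CPM (1.05, adjusted p = 6.21e-05). Endoplasmic reticulum and secretion genes had 15 of 35 higher [10, 8, 12 and 7] and 0 lower (median 0.25). *Kdelr3*, a retrieval receptor (1.18), and *Creb3l1*, a regulator of collagen secretion (1.00), were among those that rose. Proteasome and chaperonin genes had 12 of 49 lower [3, 5, 1 and 14] and 1 higher (median −0.18), with the chaperonin subunit *Cct7* lower (−0.66) and the small heat shock protein *Hspb1* higher (0.81).

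To see which changes stood apart from a knockdown of the BRCA1-BARD1 ligase, siWdr5 was set against siBrca1 and siBard1 of the same day. Against siBrca1, 1.6% of all genes were called higher and 3.13% lower in siWdr5. The sum of 664 called genes was 356 without siWdr5 replicate 1, 411 without siWdr5 replicate 2, 1211 without siBrca1 replicate 1 and 466 without siBrca1 replicate 2. Against siBard1, 1.18% were called higher and 0.877% lower. Their sum was 288, and 112 without siWdr5 replicate 1, 117 without siWdr5 replicate 2, 214 without siBard1 replicate 1 and 139 without siBard1 replicate 2. With quantile normalization the share of higher genes among the calls against siBard1 was 68.4%, in place of 57.3%. Both comparisons and that with the nt control share the siWdr5 libraries. Gene models that are neither protein coding nor ribosomal took 18.9% to 21.6% of the reads in siWdr5, 13.4% to 17.0% in siBrca1 and 14.3% to 17.7% in siBard1. In the nt control they took 21.8% to 23.9%. The part of these shares in the differences from any of the 3 groups was not tested.

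In the same direction against the nt control, siBrca1 and siBard1, 209 genes (1.49% of those tested) passed as higher in siWdr5 and 196 (1.40%) as lower. The higher genes were 68 and 60 without siWdr5 replicates 1 and 2, 155 and 106 without siBard1 replicates 1 and 2, and 183 to 210 without another library. The lower genes were 22 and 43 without siWdr5 replicates 1 and 2, 70 and 75 without siBard1 replicates 1 and 2, and 137 to 201 without another library. *Ccl8* was among the higher ones, with 1.61 and 1.40 CPM in siBrca1 and 0.907 and 0.916 CPM in siBard1 beside 6.23 and 9.03 CPM in siWdr5 (log2-fold change against siBrca1 2.32, adjusted p = 3.61e-04, and against siBard1 3.04, adjusted p = 1.05e-04). *Rgs4*, a regulator of G protein signalling, had 1.06 and 0.821 CPM in the nt control, 2.496 and 2.88 in siBrca1, 2.03 and 1.59 in siBard1 and 4.80 and 5.91 in siWdr5. *Aoah*, which inactivates lipopolysaccharide, had 1.13 and 0.593 CPM in the nt control, 0.800 and 0.699 in siBrca1, 0.627 and 1.28 in siBard1 and 4.18 and 4.12 in siWdr5. Of the lower ones, *Slc2a3* had 12.01 and 11.95 CPM in siBrca1 and 10.1 and 12.6 CPM in siBard1 beside 3.99 and 4.38 CPM in siWdr5 (against siBrca1 −1.52, adjusted p = 1.32e-04, and against siBard1 −1.43, adjusted p = 3.05e-04). *Sall4* had 3.23 and 2.74 CPM in siBrca1 and 3.78 and 2.84 CPM in siBard1 beside 1.63 and 1.20 CPM in siWdr5 (against siBrca1 −1.09, adjusted p = 0.0128, not passing in 2 of 15 alternatives with an adjusted p of up to 0.129 without siWdr5 replicate 2, and against siBard1 −1.23, adjusted p = 0.0116, not passing in 4 of 15 alternatives with an adjusted p of up to 0.114 without siWdr5 replicate 2). *Stxbp2*, a syntaxin partner in granule release, had 28.96 and 29.2 CPM in the nt control, 25.9 and 24.4 in siBrca1, 25.1 and 19.1 in siBard1 and 9.28 and 8.10 in siWdr5. *Cenpv*, a centromere protein, had 23.3 and 20.2 CPM in the nt control, 11.6 and 11.5 in siBrca1, 13.6 and 12.1 in siBard1 and 7.10 and 6.77 in siWdr5. In each of these genes the siWdr5 libraries lay on the same side of all 6 other libraries. The genes were chosen because they passed against all 3 groups, so this follows in part from the choice.

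By lists, the direction depended on the reference. The counts are to be read against 5.47% higher and 10.2% lower of all genes in the comparison with siBrca1, and 4.85% higher and 3.78% lower in that with siBard1. Counts in square brackets are those without siWdr5 replicate 1, without siWdr5 replicate 2, without replicate 1 of the other knockdown and without its replicate 2. The shares of all genes do not apply to them, and they show only how far a count depends on single libraries. The 55 chemokine and cytokine genes passed as higher than in siBrca1 in 17 genes [11, 7, 15 and 18] and as lower in 4 [0, 2, 10 and 2]. Against siBard1 they passed as higher in 21 [13, 11, 14 and 12] and as lower in 1. The 33 collagens had 8 higher [3, 5, 9 and 8] and 4 lower [0, 2, 5 and 3] against siBrca1, and 16 higher [3, 4, 11 and 6] and 1 lower against siBard1. The 41 contractile genes had 19 genes lower than in siBrca1 [3, 4, 27 and 7] and 0 higher, but 5 higher than in siBard1 [0, 0, 5 and 0] and 0 lower. The 46 lysosomal genes had 20 lower than in siBrca1 [5, 12, 34 and 14], and the 26 ATF4 genes 12 [1, 5, 19 and 8]. The 66 mitotic genes had 15 higher [0, 0, 62 and 0] and 1 lower against siBrca1, and 0 higher and 9 lower [0, 0, 2 and 0] against siBard1. Without siBrca1 replicate 2 or either siWdr5 library, no mitotic gene passed as higher than in siBrca1. Of the 31 interferon genes tested, those that passed as lower than in siBrca1 and in siBard1 were 9 [4, 7, 9 and 9] and 6 [0, 2, 1 and 3] genes, with *Ifit1* at 1.19 and 0.421 CPM in the nt control, 0.510 and 0.601 in siWdr5, 3.09 and 2.32 in siBrca1 and 3.57 and 2.89 in siBard1. Against each of the 3 references more ribosomal protein genes passed as lower than as higher and more chemokine and cytokine genes as higher than as lower, and for contractile genes the direction changed with the reference.

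**Figure D4:**
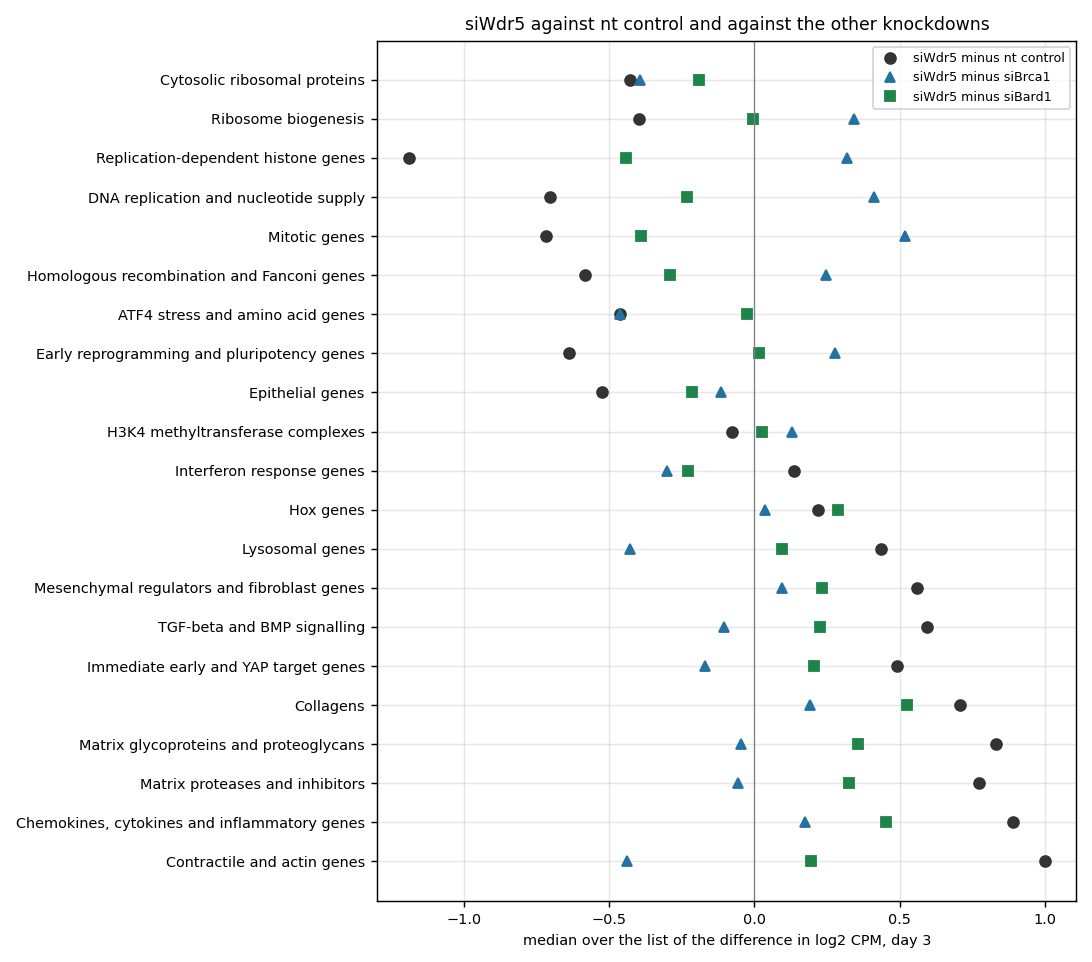
Median log2-fold change of the members of each gene list in siWdr5 relative to the nt control, siBrca1 and siBard1 at day 3, which share the siWdr5 libraries. Cytosolic ribosomal proteins lie below 0 against the 3 references, and contractile genes lie above 0 against the nt control and below 0 against siBrca1.

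The change at day 3 was then compared with the change at day 6, by which time the siRNA had been in the cells for longer. Of all genes, 3.4% passed as moving up between the days (the siWdr5 to nt control difference at day 6 minus that at day 3) and 1.03% as moving down, and 0.691% and 0.699% were called, with a median of 0.12 over all genes. These 195 called genes depended on single libraries. They were 0 without nt control replicate 1 of day 3 (2551 genes at an unadjusted p below 0.05), 2 without its replicate 2, 8 without siWdr5 replicate 1 of day 3 and 0 without its replicate 2 (2768 genes at an unadjusted p below 0.05), all with limma, and limma-voom on all libraries called 188. Leaving out day 6 libraries gave 23 and 102 (nt control replicates 1 and 2) and 81 and 26 (siWdr5 replicates 1 and 2). After centring of the libraries on their median genes 22.4% of the called genes were higher, and with quantile normalization 33.9%, in place of 49.7%. *Wdr5* had 91.8 and 98.1 CPM in the nt control and 85.5 and 72.4 CPM in siWdr5 at day 6 (difference of the 2 log2-fold changes 1.04, adjusted p = 0.0125, not passing in 6 of 18 alternatives with an adjusted p of up to 0.0763 without siWdr5 day 3 replicate 1), a smaller difference than at day 3. *Sall4* and *Tns4* were named for their day 3 change, which is part of this difference, so their values are a description. *Sall4* had 28.6 and 35.1 CPM in the nt control and 25.6 and 14.4 CPM in siWdr5 at day 6 (1.72, adjusted p = 0.0289, not passing in 8 of 18 alternatives with an adjusted p of up to 0.109 without nt control day 3 replicate 1). *Tns4* had 2.22 and 3.09 CPM in the nt control and 1.52 and 1.74 CPM in siWdr5 at day 6 (−3.30, adjusted p = 0.0117, not passing in 3 of 17 alternatives with an adjusted p of up to 0.0755 without siWdr5 day 3 replicate 2).

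The lists differed in how much of the day 3 change was seen at day 6. The contractile median was 1.00 at day 3 and 1.02 at day 6, and that of the matrix glycoproteins 0.83 and 0.82. The ribosomal protein median was −0.43 and −0.36, and that of the pluripotency genes −0.64 and −0.53. The histone median was −1.19 and −0.54, the mitotic one −0.72 and 0.031, and that of ribosome biogenesis −0.40 and −0.011. Of the genes tested, 8 mitotic, 9 ribosome biogenesis and 0 histone genes passed as moving up between the days (limma, with 4 histone genes at an unadjusted p below 0.05). Over all genes 622 passed with all libraries and 0, 2, 8 and 0 without nt control replicate 1, nt control replicate 2, siWdr5 replicate 1 and siWdr5 replicate 2 of day 3. Among the lists that were higher at day 3, the chemokine and cytokine median was 0.89 and 0.40 (5 genes passed as moving down), the imprinted one 0.48 and −0.0097, the lysosomal one 0.44 and 0.23, and that of the matrix proteases and inhibitors 0.77 and 0.61. The medians thus lay nearer to 0 at day 6 in some lists of either direction, and about as far from 0 as at day 3 in the contractile and matrix glycoprotein lists.

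**Figure D5:**
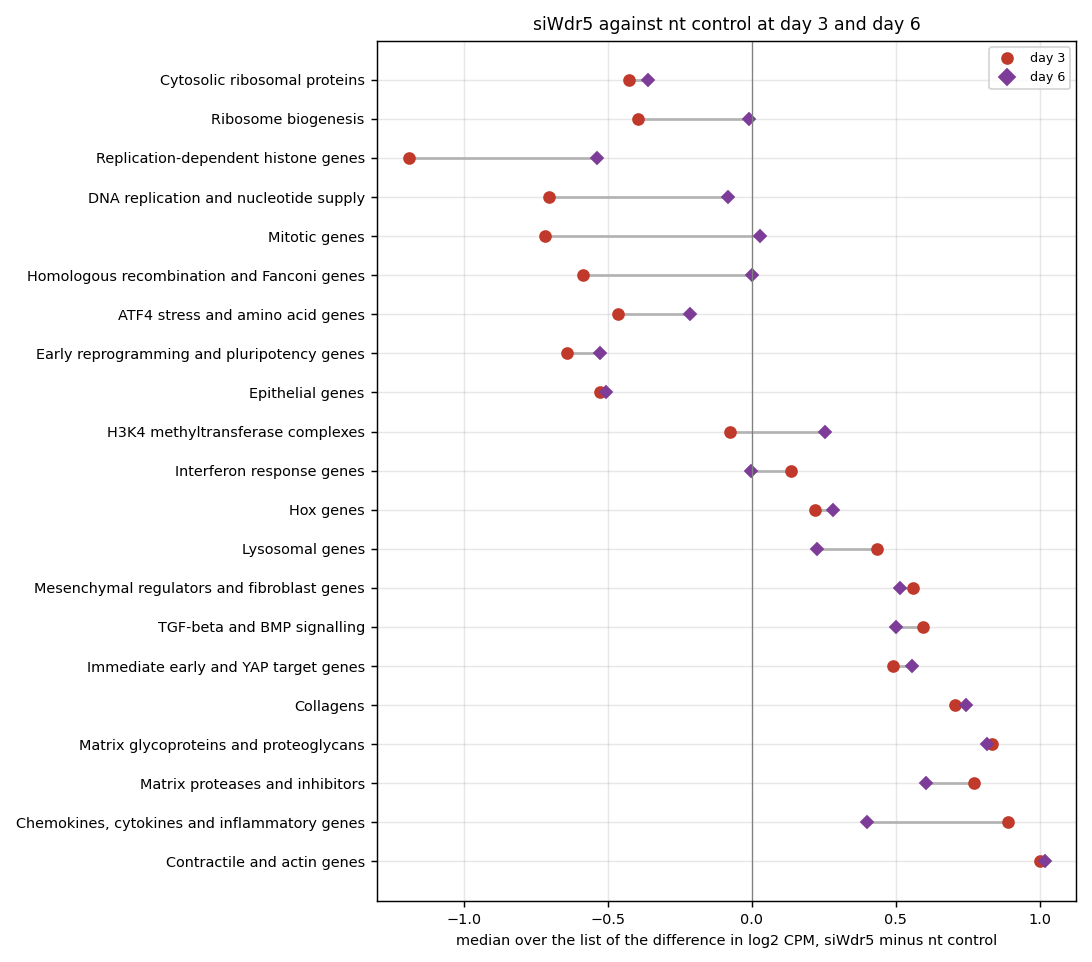
Median log2-fold change of the members of each gene list in siWdr5 relative to the nt control at day 3 and at day 6. The contractile genes lie near 1 on both days, and the ribosome biogenesis genes lie below 0 at day 3 and near 0 at day 6.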

How the data were processed

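The study's RNA libraries came from reprogramming MEFs, with 2 libraries per group and day. The authors removed ribosomal RNA (RiboErase), used paired-end sequencing on a NextSeq 500, aligned the reads to mm10 with STAR 2.5.2b and computed log-CPM with edgeR 3.20.9. The deposited values are log2 CPM, scaled between libraries and raised by a prior count, so low genes have compressed fold changes. All of them could be turned back into whole reads (100%, tolerance 0.01 reads up to 1000 reads), which gave the depth. The read counter and the annotation are not given in the sources used here. CPM in the text is 2 to the power of the deposited value.

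Genes whose mean log2 CPM reached 0 were tested with limma 3.58.1 in R 4.3.3 on the deposited values of the 8 day 3 libraries, with 1 mean per group and a trend on expression, and the day 6 difference on all 16. Two-sided p-values were adjusted after Benjamini and Hochberg over 14028 genes (called the Benjamini-Hochberg adjustment). The SE is that of the log2-fold change. As no count table was used, limma took the place of count models, and limma-voom on the recovered reads was an alternative. The genes named are *Wdr5*, the 10 largest rises and the 10 largest falls among called genes that moved alike in both same-numbered pairs, for each list up to 4 passed members with the largest rise and up to 4 with the largest fall, and the 10 genes each way that passed against all 3 groups. Other list members may be given as values, and a few named by this rule are not reported here. Where a model of a pseudogene, ribosomal RNA or unnamed transcript ranked among the 10, it was only counted. There were 5 such models among the falls. Members, lists and tests were chosen with earlier results of these data known. Promoters are 300-base RefSeq windows. Of these steps, only the limma test of siWdr5 against the nt control was tried on simulated reads. The simulation held planted changes and 1 spread for all genes.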

Additional observations from a re-analysis of the deposited data

Results flagged for a closer look

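The change of siWdr5 relative to the nt control differed between day 6 and day 3 in 195 called genes (limma, all 16 libraries). Of *Wdr5*, the 10 largest rises and the 10 largest falls of day 3, 8 had an adjusted p below 0.05 for the difference. Apart from *Wdr5*, these genes were chosen for their extreme change at day 3, whose values enter the difference, so a difference toward 0 follows in part from the choice and the values are a description. The difference of the log2-fold changes (day 6 minus day 3) was 1.04 for *Wdr5*, 1.72 for *Sall4*, 1.47 for *Hap1* and 1.33 for *Cnpy1*, which were lower in siWdr5 at day 3. It was −1.90 for *Ccl8*, −1.92 for *Apob*, −3.30 for *Tns4* and −3.92 for *Gjb2*, which were higher at day 3. Among these, *Ccl8* had 3.82 and 4.36 CPM in the nt control and 12.1 and 15.7 CPM in siWdr5 at day 6, *Apob* 0.696 and 1.01 CPM and 1.79 and 1.97 CPM, and *Gjb2* 9.81 and 25.97 CPM and 12.3 and 3.84 CPM in the same order. *Hap1* had 5.01 and 5.48 CPM in the nt control and 3.58 and 2.88 CPM in siWdr5 at day 6, and *Cnpy1* 16.1 and 13.4 CPM and 8.41 and 5.98 CPM in that order. Each of these 8 differences failed the test in 3 (*Tns4*) to 13 (*Cnpy1* and *Hap1*) of the alternatives, those without a day 3 library included. The causes were not tested.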

How the results depend on the processing

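The 989 genes called in siWdr5 relative to the nt control were 776 to 970 when 1 library was left out, 1011 with the replicate block and 1057 with voom. The count was 622 where the mean log2 CPM had to reach 2, 655 with a pseudocount of 1 CPM and 4913 with no fold change threshold. Relative to siBrca1 the 664 called genes were 342, 410 and 2197 in the same order, 692 with the replicate block, and 356 to 1211 when 1 library was left out. Relative to siBard1 the 288 called genes were 147, 149 and 1210, 312 with the replicate block, and 112 to 214 when 1 library was left out. The 195 genes of the day 6 difference were 430 with the compared groups only, 20 with no trend, 622 with no fold change threshold, 229 with the replicate block, and 0 to 102 when 1 library was left out. The stricter mean log2 CPM leaves 11042 genes to test, and the other causes were not tested. The replicate 2 minus replicate 1 differences of the day 3 groups had correlations across genes of −0.093 to 0.072. Such values show no strong shift shared by same-numbered libraries, but cannot decide whether these came from the same experiment. Of the 232 named genes, 157 passed in every alternative and 75 were lost in 1 or more, and *Ddb1* reversed with quantile normalization (−0.011). With 2 libraries per group, small changes of low genes were not detectable.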
